A study of Macaca mulatta with 26 samples.

Results

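The genes described here are 10 genes of pigment cells: PMEL, TYR, TYRP1, DCT, MLANA, MITF, BEST1, SLC45A2, OCA2 and SERPINF1. They were taken by name from a table of 50308 genes, and 10 of 10 names were found. The study sequenced total RNA from the retina and the pineal gland of rhesus macaques around the day, beside pools of other tissues. Each tissue had 12 libraries, 3 for each of 4 collection windows: 0500 to 0700 for dawn, 1100 to 1300 for mid-day, 1700 to 1900 for dusk and 2300 to 0100 for midnight. The control pools were 2 libraries, 1 from mid-day and 1 from midnight, each mixed in equal amounts from 16 tissues (brain regions, pituitary and peripheral organs). Per the labels, 12 animals of both sexes, aged 3 to 33 years, lived on a cycle whose 12 h light phase began at 0600 and was followed by 12 h of darkness. They were collected over 11 years, with 3 animals at each time. The labels do not link a retina library to a pineal library of the same animal. P-values between groups therefore measure the spread between libraries, whose link to animals is given only as numbers per time.

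Melanin is made in melanosomes, organelles that mature on a scaffold of PMEL fibrils while the enzymes TYR, TYRP1 and DCT turn tyrosine into pigment inside them. In the eye this takes place in the retinal pigment epithelium, the cell layer that lies against the photoreceptors and recycles their visual pigment, and in melanocytes of the choroid behind it. The pigment epithelium makes its melanin mainly before birth and keeps it for life. When a retina is dissected, part of this layer may come away with it or stay behind. The pineal gland develops, like the retina, from the diencephalon, and it too can hold pigmented cells in several mammals.

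The reads assigned to genes came to between 16.9 and 21.4 M in a retina library, between 11.7 and 16.1 M in a pineal library, and to 23.0 and 16.2 M in the mid-day and midnight pools. Summed marker genes went with the tissue labels. The summed level of 6 genes of retinal bipolar, amacrine and ganglion cells was 138 to 199 FPKM (reads scaled to gene length and library size) in the retina and 12.7 to 43.2 in the pineal gland. The summed level of 5 pinealocyte genes was 278 to 449 FPKM in the retina and 872 to 1306 in the pineal gland. Of these genes, limma called 3 lower and 1 higher in the retina, where 34.9% of all genes tested were called lower and 48.1% higher. Among them TPH1, the first enzyme of the pineal serotonin and melatonin pathway, was at 7.71 to 23.3 FPKM in the retina and at 431 to 817 in the pineal gland. The retina libraries dawn 2 and mid-day 1 stood apart from the other 10 of that tissue, with 44.8% and 45.7% of genes at 0 against 33.5% to 35.2%, and some results are given with and without them.

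TYRP1 was the pigment gene with the largest fold difference in mean level between the tissues. It was abundant in every retina library, low in the pineal gland and near the detection limit in the control pools. MITF, DCT, SERPINF1 and OCA2 went the other way and were lower in the retina than in the pineal gland. BEST1 and PMEL were higher in the retina, at low levels. The tissues did not differ detectably in SLC45A2, and TYR was close to 0 in both. These are bulk tissues, in which fewer cells of a type and less RNA per cell cannot be told apart.

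Among the enzymes, TYRP1, a relative of tyrosinase needed for brown-black eumelanin, had a lowest, median and highest level of 4.31, 23.8 and 56.5 FPKM in the retina, against 0.151, 1.08 and 2.79 in the pineal gland, and stood at 0.122 in each control pool. The lowest retina library, dusk 2, was thus above the highest pineal library, midnight 2. The means were 25.6 ± 13.5 FPKM in the retina and 1.27 ± 0.795 in the pineal gland (SD, n = 12 each). On the log2(FPKM + 0.5) scale, which understates the change of low genes, TYRP1 was higher in the retina by 3.81 ± 0.25 (SE; limma, Benjamini-Hochberg adjusted p = 5.5e-11).

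DCT, the tautomerase that acts between TYR and TYRP1, ran the opposite way. Its lowest, median and highest levels were 0.0347, 0.121 and 0.256 FPKM in the retina, against 0.831, 1.27 and 4.18 in the pineal gland, with 0.448 and 0.326 in the mid-day and midnight pools. The tissues did not overlap, and the retina values rested on 5 to 36 reads a library. DCT was lower in the retina by a log2 difference of -1.71 ± 0.16 (adjusted p = 1.04e-08). TYR, the enzyme that starts melanin synthesis, did not reach 1 FPKM in any library and was not tested. It had a lowest, median and highest level of 0, 0.102 and 0.395 FPKM in the retina, against 0, 0.0944 and 0.767 in the pineal gland, and 0.0326 and 0.0926 in the pools. The 12 retina libraries held 73 TYR reads in all and the 12 pineal libraries 69, of which 33 came from dusk 2. In the 3 libraries with no TYR read, retina dawn 3 and pineal dawn 1 and 3, a level of up to 0.0664, 0.0867 and 0.0860 FPKM (3 reads; counting error only) could not have been told from 0.

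PMEL, whose protein forms the fibrils of the melanosome, had a lowest, median and highest level of 0.144, 0.692 and 1.74 FPKM in the retina, against 0.0554, 0.178 and 0.276 in the pineal gland, and 0.793 and 1.08 in the pools. The tissues overlapped in the 3 retina libraries dusk 2, dusk 3 and dawn 3, which lay within the pineal range. PMEL was higher in the retina by a log2 difference of 0.77 ± 0.17 (adjusted p = 0.000276), while both pools were above the retina's median. MLANA, a melanosome protein that binds PMEL, was not tested, since no library reached 1 FPKM. Its lowest, median and highest levels were 0.151, 0.694 and 0.988 FPKM in the retina, against 0.0509, 0.138 and 0.342 in the pineal gland, and 0.145 and 0.123 in the pools. The retina libraries mid-day 1 (0.151) and dawn 2 (0.181) lay within the pineal range, and the other 10, from 0.524 upwards, lay above it.

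Among the membrane transporters of the melanosome, SLC45A2, which helps to set the acidity of the organelle, had a lowest, median and highest level of 0.161, 0.766 and 1.82 FPKM in the retina, against 0.189, 0.523 and 1.60 in the pineal gland, and 0.0133 and 0.133 in the pools. The tissue ranges overlapped almost fully. The log2 difference was 0.11 ± 0.23 (adjusted p = 0.651), and without retina dawn 2 and mid-day 1 it was -0.0013. OCA2, which conducts anions across the melanosome membrane, had a lowest, median and highest level of 0.376, 0.909 and 1.30 FPKM in the retina, against 1.20, 2.21 and 5.32 in the pineal gland, and 1.63 and 2.56 in the pools. Retina and pineal ranges met only at retina dusk 1 (1.30) and dawn 2 (1.26) and at the pineal libraries dawn 3 (1.20) and mid-day 3 (1.29). OCA2 was lower in the retina by a log2 difference of -1.02 ± 0.19 (adjusted p = 5.06e-05).

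BEST1, a calcium-activated chloride channel of the basal membrane of the pigment epithelium, had a lowest, median and highest level of 0.327, 1.42 and 2.75 FPKM in the retina, against 0.168, 0.251 and 0.541 in the pineal gland, and 0.571 and 1.03 in the pools. A single retina library, dusk 2, lay within the pineal range. BEST1 was higher in the retina by a log2 difference of 1.11 ± 0.18 (adjusted p = 1.14e-05). SERPINF1 encodes pigment epithelium-derived factor, a secreted protein that restrains vessel growth and supports neurons. It had the highest median of the 10 genes in either tissue, although TYRP1 was above it in 3 of 12 retina libraries, and stood at 19.4, 31.6 and 52.6 FPKM (lowest, median, highest) in the retina against 65.5, 89.8 and 100.1 in the pineal gland, and 24.6 and 22.9 in the pools. The tissues did not overlap, and SERPINF1 was lower in the retina by a log2 difference of -1.40 ± 0.16 (adjusted p = 1.12e-07).

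MITF, the transcription factor that drives the pigment enzymes in melanocytes and specifies the pigment epithelium, had a lowest, median and highest level of 2.79, 3.53 and 5.92 FPKM in the retina, against 17.1, 20.7 and 23.8 in the pineal gland, and 10.1 and 8.95 in the pools. Every retina library was below both pools, and every pineal library was above them. The log2 difference was -2.36 ± 0.09 (adjusted p = 1.7e-14). MITF is also made in mast cells, osteoclasts and other cells, from several promoters that a gene-level value does not separate.

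**Figure D1:**
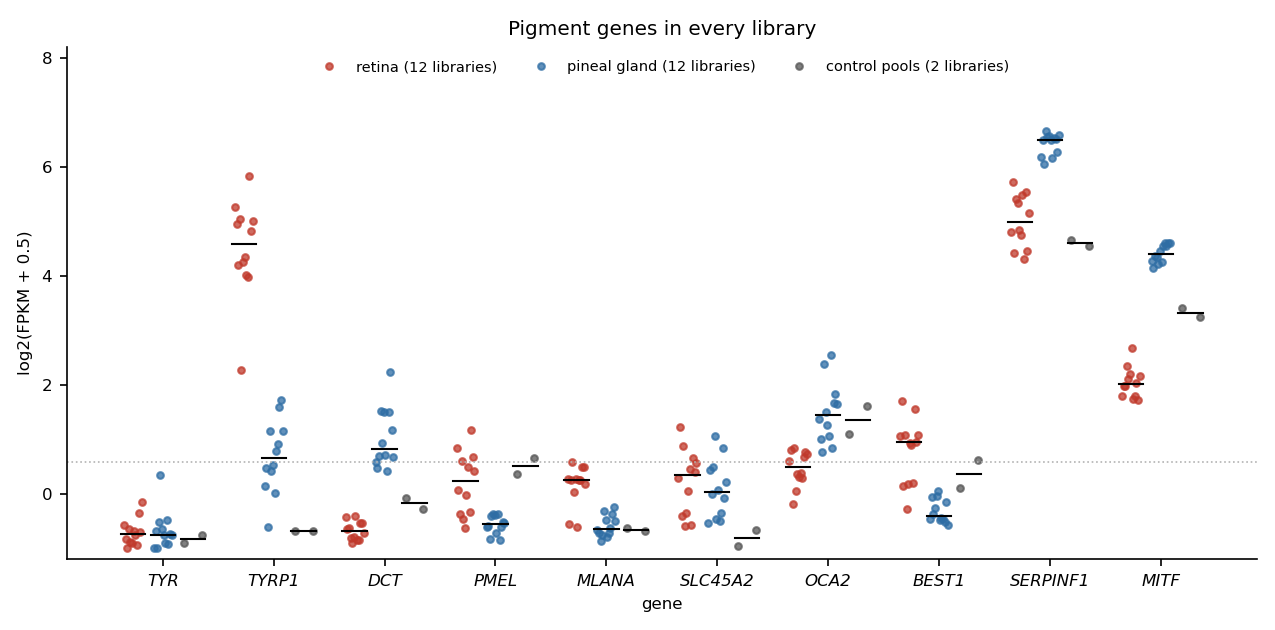
Level of each pigment gene in every library as log2(FPKM + 0.5), with retina libraries on the left, pineal libraries in the middle and control pools on the right of each gene, and bars at the medians. The dotted line marks 1 FPKM. TYRP1 (4.31 to 56.5 FPKM in the retina, 0.151 to 2.79 in the pineal gland) is higher in all retina libraries, and MITF, DCT and SERPINF1 are lower in all retina libraries.

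In all, 8 of the 10 genes passed the filter of 1 FPKM in at least 3 libraries for this comparison. Of these, 7 were called, 3 higher and 4 lower in the retina. PMEL and BEST1 passed the filter only through retina libraries and DCT only through pineal libraries, so their direction was partly fixed by it. Across all genes tested 83.0% were called, 48.1% higher and 34.9% lower, so a call between these tissues is the common outcome. The groups did not overlap for 4 of the 10 genes (TYRP1 higher; MITF, DCT and SERPINF1 lower), against 30.8% of the genes tested in either direction, 14% higher and 16.8% lower. Without the filter, MLANA was called too, higher in the retina by 0.74 ± 0.12 (adjusted p = 2.43e-05), and TYR was not (-0.03 ± 0.10, adjusted p = 0.805). The median difference of all genes tested was 0.18, and 0.051 after rescaling each library to a median log2 ratio of 0, a shift under which the 7 calls and their directions stayed. The test treats retina and pineal libraries as independent, although the labels count 12 animals for both. How many animals gave both tissues is not known, and XIST, given below, differed between the tissues at dawn.

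Ordered by median level per length, the retina ran SERPINF1, TYRP1, MITF, BEST1, OCA2, SLC45A2, MLANA, PMEL, DCT and TYR. The pineal gland ran SERPINF1, MITF, OCA2, DCT, TYRP1, SLC45A2, BEST1, PMEL, MLANA and TYR. The ranges of neighbours in this order were apart only between MITF and BEST1 in the retina, and between SERPINF1 and MITF and between MITF and OCA2 in the pineal gland. TYRP1 was nevertheless above MITF in 12 of 12 retina libraries, although the ranges met through dusk 2.

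The control pools gave a body-wide background for each gene. Against them, TYRP1 was the single pigment gene that limma called higher in the retina, and SERPINF1, MITF, TYRP1 and DCT were called higher in the pineal gland. Retina against pools tested 7 of the 10 genes and called 3, where 60.0% of all genes tested were called, 36.9% higher and 23.1% lower. TYRP1 was higher in the retina by a log2 difference of 5.18 ± 0.61 (limma adjusted p = 5.38e-06), MITF was lower, with a difference of -1.28 ± 0.20 (0.000103), and so was OCA2, with -0.88 ± 0.27 (0.0125). With limma-voom on recovered reads TYRP1 lost its call against the 2 pools (7.40 ± 3.14, adjusted p = 0.0680), which held 10 and 7 of its reads. SLC45A2 missed the threshold, at 1.02 ± 0.43 (0.0524). TYRP1 and SLC45A2 passed the filter only through retina libraries. PMEL (-0.31 ± 0.42, 0.535), BEST1 (0.44 ± 0.43, 0.394) and SERPINF1 (0.42 ± 0.33, 0.286) were not called. Of all genes called in this comparison 61.5% were higher in the retina, and 49.6% after rescaling, while the 3 pigment genes kept their directions.

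Pineal gland against pools tested 5 of the 10 genes and called 4 higher, where 48.7% of all genes tested were called, 24.8% higher and 23.9% lower. SERPINF1 was higher in the pineal gland by 1.82 ± 0.14 (limma adjusted p = 1.38e-07), MITF by 1.08 ± 0.13 (7.3e-06), TYRP1 by 1.37 ± 0.47 (0.0248) and DCT by 1.21 ± 0.39 (0.0190). OCA2 was not called (0.14 ± 0.40, 0.799). With 2 pools, a gene could pass the filter of 3 libraries only with pineal libraries, and TYRP1 and DCT passed through these alone, so the count of higher calls was largely fixed by the filter. PMEL and BEST1 did not pass it, but every pineal library was below both pools for each of them. Without the filter they were called lower in the pineal gland, PMEL by a log2 difference of -1.08 ± 0.14 (adjusted p = 2.62e-05) and BEST1 by -0.67 ± 0.19 (0.0110). Both comparisons use the same 2 pools, which differ in time of day. TYRP1 lost its call in the pineal gland when either pool was left out (adjusted p = 0.127 and 0.130), as did DCT (0.0834 and 0.140), and OCA2 lost its call in the retina without the midnight pool (0.170).

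The authors' deposited table of retina against control, a DESeq2 test, called 6 of the 10 genes, where 49.5% of genes with an adjusted p were called. In the authors' deposited table TYRP1 was higher in the retina, with a log2 fold change of 7.40 ± 0.61, as were SLC45A2 (3.17 ± 0.83) and MLANA (2.22 ± 0.54). In that authors' deposited table DCT (-1.50 ± 0.60), MITF (-1.33 ± 0.22) and OCA2 (-1.14 ± 0.37) were lower. The directions of TYRP1, MITF and OCA2 were thus the same in both analyses of these samples.

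**Figure D2:**
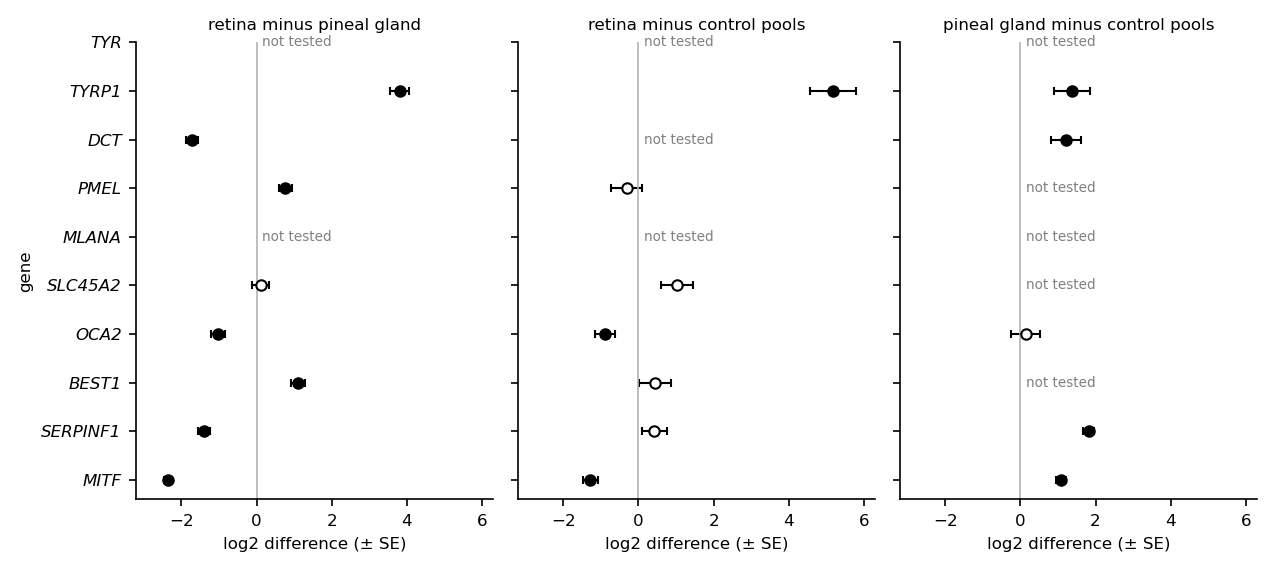
Log2 difference with its standard error (horizontal axis) for each pigment gene in retina against pineal gland, retina against control pools and pineal gland against control pools. Filled points have a limma adjusted p under 0.05, open points do not, and genes under the level filter are marked as not tested. MITF (-2.36) and TYRP1 (3.81) lie at opposite ends in the left panel.

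Within the retina, the pigment genes varied widely from library to library, and a shared set of libraries was low in several of them. RPE65, the isomerase of the visual cycle and the defining enzyme of the pigment epithelium, ranged from 1.73 FPKM in dusk 2 to 63.2 in midnight 1. Its values left a wide gap between 4 libraries at 1.73 to 7.24 FPKM (dusk 2, mid-day 3, dawn 3 and dusk 3) and 8 libraries at 21.0 to 63.2. RPE65 was set beside the pigment genes after the data had been seen, so what follows is a description, with no test.

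In the same 4 libraries BEST1 was at 0.327 to 0.640 FPKM, against 1.37 to 2.75 in the other 8. SLC45A2 was at 0.161 to 0.286, against 0.529 to 1.82. PMEL was at 0.144 to 0.296, against 0.484 to 1.74. TYR was at 0 to 0.0394, against 0.0613 to 0.395, although these are 0 to 2 reads against 3 to 20. For these 4 genes, then, no library of the 4 overlapped with the 8, whereas 0.247% of the 21890 genes tested in the retina were lower without overlap in those 4. TYR was not among the 21890 genes, since it did not pass the filter. BEST1, SLC45A2 and PMEL reached 1 FPKM only in libraries of the 8. They thus passed the filter only through the group where they were high, so their direction was partly fixed by it. TTR, SLC16A8 and SLC6A20, chosen after their values were seen from 20 listed pigment epithelium genes, showed the same division. SLC16A8, a lactate transporter, was at 0.496 to 0.882 FPKM against 1.53 to 5.18. Apart from RPE65 and RLBP1, the rest of that list is not reported here for this division.

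The other 6 pigment genes did not divide this way. TYRP1 was at 4.31 to 18.5 FPKM in the 4 libraries and 15.7 to 56.5 in the 8, and OCA2 at 0.376 to 0.791 and 0.735 to 1.30, so both met at the edge. MITF was at 2.98 to 4.11 FPKM in the 4 and 2.79 to 5.92 in the 8, DCT at 0.0347 to 0.148 and 0.0522 to 0.256, and SERPINF1 at 19.4 to 40.1 and 21.3 to 52.6. MLANA was at 0.524 to 0.701 in the 4 and 0.151 to 0.988 in the 8. RLBP1, a retinaldehyde-binding protein of both the pigment epithelium and Muller glia, did not divide either (198 to 258 and 175 to 270 FPKM). The 4 libraries comprise 1 of dawn, 1 of mid-day, 2 of dusk and 0 of midnight, so this division was not even across times.

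**Figure D3:**
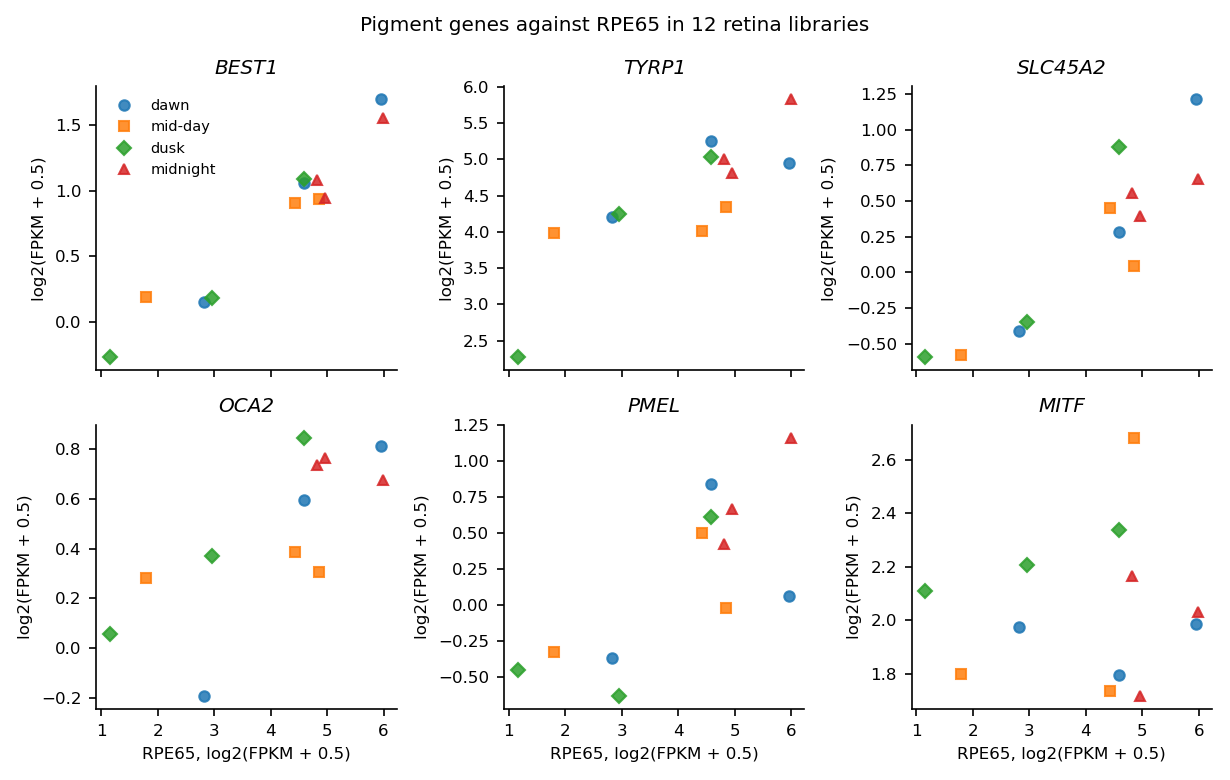
Each of 6 pigment genes (vertical axes) against RPE65 (horizontal axes) in the 12 retina libraries, all as log2(FPKM + 0.5), with a symbol for each time. The 4 libraries with RPE65 at 1.73 to 7.24 FPKM are lowest in BEST1, SLC45A2 and PMEL, while MITF shows no such order.

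Because the libraries fell into these clusters, correlations among the pigment genes and with RPE65 are given only within the 8. Within the 8 libraries with high RPE65, none of the 9 relations of PMEL with the other genes, nor of the 10 relations of RPE65 with the pigment genes, passed an adjusted p of 0.05, counted over 28 relations. The closest were PMEL with MLANA (Pearson r = 0.85, exact permutation p = 0.00923, adjusted 0.129; Spearman rho = 0.79, exact p = 0.0279) and RPE65 with BEST1 (r = 0.92, exact p = 0.0200, adjusted 0.187; rho = 0.55, exact p = 0.171). Without retina dawn 2 and mid-day 1, r between PMEL and MLANA was 0.43. Without the 2 libraries farthest from the median of RPE65, r between RPE65 and BEST1 was -0.058, so that relation rests on them.

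In the 12 pineal libraries PMEL and OCA2 had the closest relation (r = 0.74, permutation p = 0.0059, adjusted 0.129; rho = 0.69, p = 0.0154). Centred within times r was 0.76, and without the 2 libraries farthest from the median of PMEL it was 0.58. None of the 9 relations of PMEL there passed the adjustment.

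The retina libraries dawn 2 and mid-day 1 stood apart for other genes. SLC24A5, a melanosomal cation exchanger, was at 1.58 and 0.503 FPKM in them and at 5.28 to 8.37 in the other 10, and SOX10, a transcription factor of melanocytes, glia and retina, at 0.385 and 0.132 against 1.16 to 1.94. Those 2 libraries also had the lowest MLANA, and mid-day 1 the highest MITF (5.92 FPKM, 793 reads) and DCT (0.256 FPKM, 36 reads) of the retina. Without them 7 pigment genes were still called between retina and pineal gland, where 20445 of all 24618 genes tested were called.

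No pigment gene was called by limma between any times of day in either tissue, although several had groups that did not overlap. In the retina, 7 genes were tested and 0 called in the limma F test over the 4 times, where 0% of 21890 genes were called and 0 of the 7 had an unadjusted p under 0.05. In each pair of retina times 0 were called too, where 0.0274% of all genes were called for midnight against dusk and 0% for the other 5 pairs. In the pineal gland 5 genes were tested and 0 called in the F test, where 0.105% of 19110 genes were called, and 2 of the 5 had an unadjusted p under 0.05, TYRP1 (0.0127, adjusted 0.225) and MITF (0.0483, adjusted 0.339). In the 6 pairs of pineal times 0 were called, where the share of all genes called was 0.0419% for midnight against mid-day, 0.0314% for mid-day against dawn, 0.0209% for dusk against mid-day, 0.0576% for midnight against dusk, 0% for dawn against midnight and 0.586% for dusk against dawn. The tissue-by-time interaction called 0 of 8, with 0 at an unadjusted p under 0.05, where 0.218% of all genes were called. The limma-voom test on reads recovered from the FPKM values also called 0 in each of these comparisons.

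TYRP1 in the retina was at 37.8, 30.3 and 17.9 FPKM at dawn (replicates 1 to 3), at 19.8, 15.7 and 15.3 at mid-day, at 32.3, 4.31 and 18.5 at dusk and at 56.5, 27.7 and 31.7 at midnight. All 3 midnight libraries were above all 3 mid-day libraries, and the dusk libraries spanned most of the range. The mean was 38.6 ± 15.6 FPKM at midnight and 16.9 ± 2.53 at mid-day (SD, n = 3 each). BEST1 and OCA2 were also apart in this pair, with OCA2 at 1.097, 1.196 and 1.165 FPKM at midnight and 0.735, 0.808 and 0.714 at mid-day. For BEST1 the margin was small, from 1.411 FPKM, the highest at mid-day, to 1.428, the lowest at midnight. In all, 3 of the 10 genes were higher without overlap at midnight than at mid-day, against 8.12% of the genes tested. Other marker lists moved in the same pair. The summed level of 7 choroid plexus genes was 160 to 214 FPKM at midnight and 116 to 126 at mid-day. TTR and KCNJ13 of that list are also on the pigment epithelium list, so its sum is not a separate measure of another cell type. The sum of 5 endothelial genes was 7.29 to 7.80 at midnight and 9.20 to 23.97 at mid-day. The part of these genes in the differences was not tested. The closest to a call in the limma pairs was TYRP1 at midnight against dusk (log2 difference 1.37 ± 0.60, unadjusted p = 0.0473, adjusted 0.452), whose libraries overlapped.

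Authors' log2 fold changes for times may be on another scale than the differences above. In the authors' deposited table of night against day, TYRP1 was called higher at night in the retina (log2 fold change 0.82 ± 0.19, adjusted p = 0.00421), 1 of 5 pigment genes with an adjusted p, where 2.44% of genes were called. RPE65 stood at 63.2, 30.6 and 27.6 FPKM in the midnight libraries and at 28.4, 21.0 and 2.96 in the mid-day libraries, and its part in the difference in TYRP1 was not tested.

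In the pineal gland, TYRP1 was at 0.607, 0.893 and 0.151 FPKM at dawn (replicates 1 to 3), at 0.507, 1.21 and 1.38 at mid-day, at 1.72, 0.837 and 0.939 at dusk and at 2.50, 2.79 and 1.71 at midnight. The midnight libraries lay above all dawn and mid-day libraries and met the dusk range at its edge (1.72 at dusk 1 and 1.71 at midnight 3). The mean was 2.33 ± 0.560 FPKM at midnight and 0.550 ± 0.374 at dawn (SD, n = 3 each). Dawn minus midnight gave a log2 difference of -1.48 ± 0.36 (unadjusted p = 0.00172), which did not pass the adjustment over all genes (0.386). In the authors' deposited table of dawn against night, TYRP1 was called lower at dawn (log2 fold change -1.203 ± 0.311, adjusted p = 0.0159), where 1.41% of genes were called.

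MITF in the pineal gland was at 18.8, 17.1 and 19.97 FPKM at dawn, at 18.5, 22.7 and 23.8 at mid-day, at 19.8, 18.0 and 21.3 at dusk and at 22.9, 23.7 and 23.7 at midnight. Midnight was above dawn and dusk without overlap, by small margins. Dawn minus midnight was -0.33 ± 0.11 (unadjusted p = 0.0108, adjusted 0.463). MLANA and OCA2 were likewise higher at midnight than at dawn without overlap, so that 4 of the 10 genes were, against 9.75% of the genes tested. MLANA was not among the genes tested, with 5 to 13 reads a library at dawn and 19 to 30 at midnight.

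SERPINF1 in the pineal gland was at 92.7 to 100.1 FPKM at dusk and at 65.5 to 89.1 at dawn, a log2 difference of 0.35 ± 0.13 (unadjusted p = 0.0259, adjusted 0.228). PMEL, TYR and DCT were higher without overlap in the same pair, which makes 4 of the 10 genes, against 15.5% of the genes tested. PMEL and TYR were not among the genes tested and rest on few reads. PMEL had 3 to 8 reads a library at dawn and 14 to 17 at dusk, and TYR had 0 to 4 at dawn and 5 to 33 at dusk. In the authors' deposited table of dusk against dawn, DCT was called (log2 fold change 0.82 ± 0.25, adjusted p = 0.0238), where 6.15% of genes were called. The authors' other deposited time tables called 0 of the 10 genes. In the retina they called 0.851% of genes for day against dawn, 0.0809% for dusk against day, 2.54% for night against dusk, 0.366% for dawn against night and 4.05% for dusk against dawn. In the pineal gland the authors' deposited tables called 1.53% for day against dawn, 0.126% for dusk against day, 5.04% for night against dusk and 1.01% for day against night.

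Other pairs of times also held pigment genes without overlap. In the retina, MITF was higher (12.4% of the genes tested were) and DCT lower (6.75%) at dusk than at dawn, and DCT was higher at midnight than at dusk (8.67%). In the pineal gland, TYRP1 and MLANA were higher at midnight than at mid-day (5.34%), and BEST1 and SERPINF1 were higher at dusk than at mid-day (5.33%). At midnight against dusk there, MITF was higher (8.09%) and PMEL and TYR were lower (14%). DCT in the retina, and MLANA, BEST1, PMEL and TYR in the pineal gland, were not among the genes tested. No pigment gene was apart in the retina between mid-day and dawn, midnight and dawn, or dusk and mid-day, where 11.9%, 11.5% and 9.36% of genes were in either direction, nor in the pineal gland between mid-day and dawn (16.1%).

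XIST, which is transcribed from the inactive X chromosome of females, was spread unevenly over the times in these libraries. In the retina it was at 39.7, 43.6 and 49.3 FPKM at dusk and at 0.0219 to 0.0342 at dawn, and in the pineal gland it was at 42.6, 47.8 and 51.9 FPKM at mid-day and above 40 in 1 dawn, 2 dusk and 1 midnight library. At dawn 1 pineal library but no retina library was high in XIST. By XIST, then, the dawn libraries of the retina and the pineal gland did not all come from the same animals. Time and sex cannot be told apart between dusk and dawn in the retina. The part of the animals' sex in the other time differences above was not tested.

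**Figure D4:**
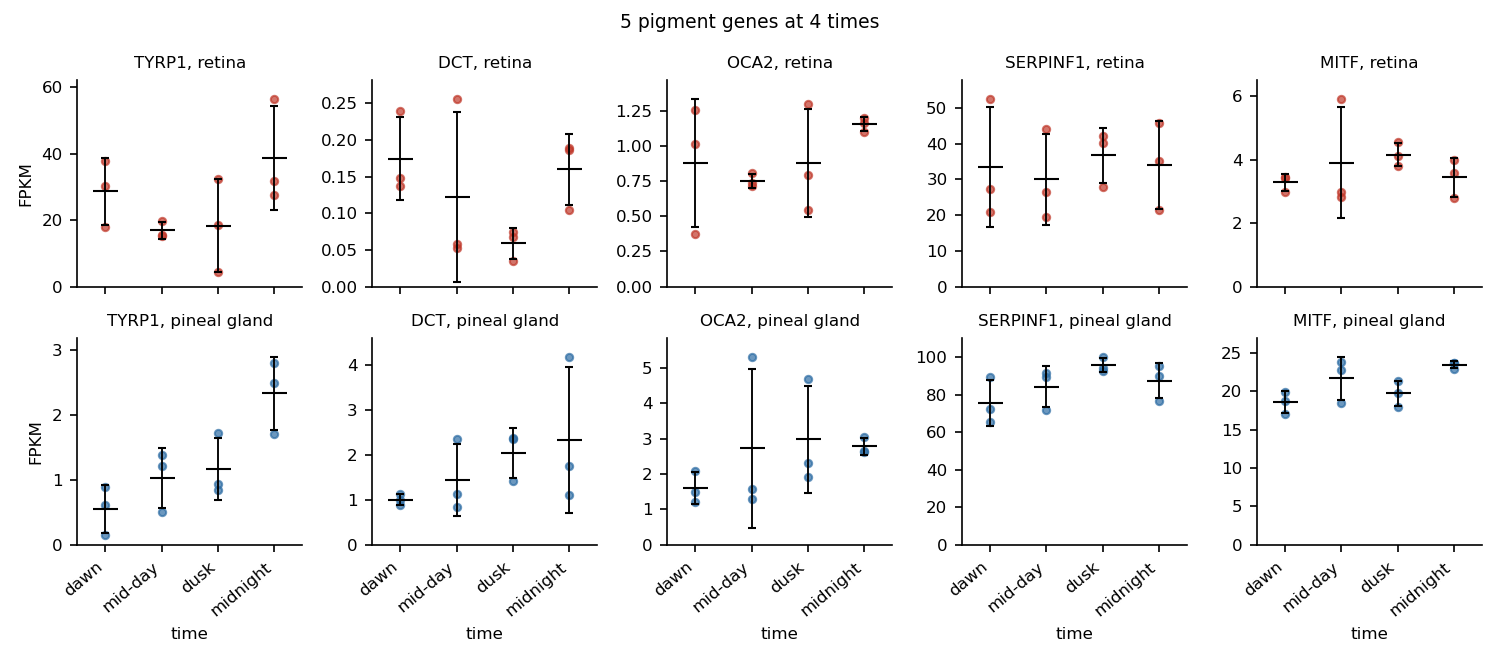
FPKM (vertical axes, from 0) of TYRP1, DCT, OCA2, SERPINF1 and MITF at dawn, mid-day, dusk and midnight in the retina (upper row) and the pineal gland (lower row). Dots are libraries, and bars give the mean ± SD of 3. The mean of TYRP1 is highest at midnight in both tissues, at 38.6 FPKM in the retina and 2.33 in the pineal gland, with overlapping dusk libraries.

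Other genes of the pigment epithelium did not all follow BEST1 and TYRP1. Of 20 listed genes 19 were tested between retina and pineal gland, and 6 were called higher and 9 lower, where 48.1% of all genes tested were called higher and 34.9% lower, with a median log2 difference of -0.65 beside 0.18 for all genes tested. RLBP1 (log2 difference 4.14), RGR (1.88), ITGB5 (1.38) and LRAT (1.30) were higher in the retina, while TTR (-4.32), SLC6A20 (-3.13) and EFEMP1 (-2.97) were lower. RPE65 itself was not called (-0.65 ± 0.42, limma adjusted p = 0.161), with medians of 23.5 FPKM in the retina and 24.2 in the pineal gland. RPE65 thus did not separate the tissues, whereas TYRP1, at a 20.2 times higher mean in the retina, did.

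Genes of melanosome biogenesis, transport and pigment regulation moved in both directions. Of 50 listed genes 49 were in the table and 47 were tested between retina and pineal gland, and 16 were called higher and 23 lower, so that the share called was near the 83.0% of all genes tested, with a median log2 difference of -0.17 beside 0.18 for all genes tested. TFAP2A (2.00), a transcription factor, HPS4 (1.68), a factor of melanosome biogenesis, KIT (1.67), a receptor tyrosine kinase of melanocytes, and DTNBP1 (1.13), a subunit of the BLOC-1 complex, were higher in the retina. GPNMB (-5.57), a relative of PMEL also made in macrophages, PAX3 (-5.20), a regulator of MITF, EDN3 (-2.68), a melanocyte growth factor, and SOX10 (-2.47) were lower, in the direction of MITF and DCT. SLC24A5 was not called between the tissues (-0.32 ± 0.28, limma adjusted p = 0.294) and was at medians of 6.79 FPKM in the retina and 6.12 in the pineal gland, against 0.102 and 0.144 FPKM in the mid-day and midnight pools. The SLC24A5 and SOX10 differences include retina dawn 2 and mid-day 1, in which both genes were low.

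Against the pools, 42 melanosome genes were tested for the retina, with 13 called higher and 14 lower, and 45 for the pineal gland, with 13 higher and 11 lower. Of the pigment epithelium list, 18 were tested for the retina, with 8 higher and 3 lower, and 18 for the pineal gland, with 10 higher and 2 lower. Over all genes tested, 36.9% were called higher and 23.1% lower for the retina, and 24.8% and 23.9% for the pineal gland. SLC24A5 was among the genes higher in both, by 3.18 ± 0.65 in the retina and 3.499 ± 0.290 in the pineal gland (limma adjusted p = 0.000902 and 3.05e-07). The retina value includes dawn 2 and mid-day 1. The time tests over the 4 times called 0 genes of either list in either tissue.

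Markers of other cell types differed between the tissues. The summed level of 7 choroid plexus genes was 106 to 214 FPKM in the retina and 418 to 1666 in the pineal gland, with 7 of 7 called lower in the retina. TTR and KCNJ13 among them are also on the pigment epithelium list. The sum of 9 genes of choroidal and meningeal stroma was 73.3 to 134 FPKM in the retina and 204 to 653 in the pineal gland, with 9 of 9 lower in the retina. Defining stromal genes were near 0 in the retina, where COL1A1 reached at most 0.126 FPKM and DCN 0.983, against up to 6.46 and 64.5 in the pineal gland. The sum of 10 melanocyte and Schwann lineage genes was 57.3 to 82.7 FPKM in the retina and 42.9 to 78.0 in the pineal gland, with 3 of 7 tested higher and 2 lower. KIT and TFAP2A were among the 3 higher, and SOX10 and PAX3 were the 2 lower. TRPM1 of this list is also on the list of retinal bipolar, amacrine and ganglion cells, so the sum is not one of melanocytes alone. Among all genes tested between these tissues, 48.1% were called higher and 34.9% lower in the retina. The part of the cell types listed here in the levels of SERPINF1, MITF, DCT and OCA2 was not tested.

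The genes most like the mean of the 10 pigment genes were ranked by Pearson r over the 12 libraries of each tissue, as a description. Among 12242 genes in the retina they were SLC6A13, SLC6A20, SLC16A8, ENPP2, SLC39A12 and TTR. All 6 were lower in the 4 libraries with low RPE65 than in the other 8, so their rank cannot be told apart from that division, and no r is given. They were lowest in dusk 2, the library lowest in TYRP1, BEST1, SLC45A2, DCT and RPE65, and highest in midnight 1 or dawn 2, the libraries highest in RPE65. Among 12787 genes in the pineal gland the closest were GSDMD (r = 0.95), DOK1 (0.94), LST1 (0.93), ADCY7 (0.93), NRROS (0.93) and GIMAP4 (0.92), each lowest in dawn 3. That pineal library was also the lowest in TYRP1, MLANA, OCA2 and SERPINF1 and had no TYR read. The points of each gene share their library, its depth and its dissection.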

How the data were processed

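The authors deposited FPKM values for 50308 genes in 26 libraries of total RNA. The submitters' processing notes name STAR 2.3.0e, FastQC, featureCounts of Subread, DESeq2 and the human genome hg19. Which annotation, strand setting and filters applied is not given in the sources used here. Since macaque RNA was set against a human genome, the level of a gene can depend on how far the species diverge there. In the macaque RefSeq gene table (T2T-MMU8v2.0), PMEL overlaps CDK2 and MITF overlaps another protein-coding gene. Without a stated strand setting, reads of such pairs cannot be told apart.

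Per the file headers, the authors' deposited comparison tables hold p-values, raw and adjusted, beside a log2 fold change, its standard error, the score of the test and the mean normalised count (a signal). The deposited pineal-against-control table holds the same values as the retina-against-control table in 100% of its cells and was not used. Whether the deposited log2 fold changes were shrunken is not given in the sources used here.

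Here, whole reads were recovered from the FPKM steps for 42804 of 42804 genes above 0 (within 0.0001 of a whole number) and gave depths, read counts and floors of 3 reads. Genes with at least 1 FPKM in at least 3 fitted libraries were tested on log2(FPKM + 0.5) with limma 3.58.1 (R 4.3.3; empirical Bayes with a mean-variance trend, two-sided), and Benjamini-Hochberg adjusted p-values under 0.05 over all genes tested were called. There were 18 comparisons. Each tissue was fitted over its 4 times, both tissues in 1 fit of 8 groups, and each tissue with the pools as 2 groups. Scripts were tested on simulated data. Correlations used exact permutation over 8 libraries, or 100000 permutations over 12. Python 3.11.15 with numpy 2.4.6, pandas 2.3.3, scipy 1.17.1 and matplotlib 3.10.9 was used.

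The 24 pairs of libraries of the same tissue and time differed by more than sampling noise (chi-square per gene of 8.50 to 40.5). Replicate numbers were not taken as pairs in the main fit, since the labels do not say that numbers mark animals. Same-numbered libraries did not deviate together in every pair, and a fit with a replicate block is given as an alternative. The genes, lists and rules were chosen with earlier results of these data known. All 10 genes were described. Further genes were the 6 most like their mean in each tissue and the 4 largest called changes in each direction of a list, of which 1 is not reported here. RPE65, TPH1, XIST, SLC24A5, COL1A1, DCN and the genes shown beside RPE65 were named after their values were seen. Alternatives were other pseudocounts (0.1 and 1), no filter, rescaled libraries, limma-voom on recovered reads, a replicate block, and leaving out libraries.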

Additional observations from a re-analysis of the deposited data

Results flagged for a closer look

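DCT moved in opposite directions between dusk and dawn in the 2 tissues, with no overlap between the libraries in either. In the retina it was at 0.0683, 0.0347 and 0.0740 FPKM at dusk and at 0.239, 0.137 and 0.148 at dawn, a ratio of means of 0.337 that rests on 5 to 12 reads a library at dusk and 19 to 31 at dawn. In the pineal gland it was at 2.37, 1.41 and 2.34 FPKM at dusk and at 0.997, 0.882 and 1.121 at dawn, a ratio of 2.04. The difference between the tissues in this pair of times was not tested by itself. The limma interaction over all 4 times gave an adjusted p of 0.726 for DCT. In the authors' deposited tables, whose scale may differ, the log2 fold change of DCT at dusk against dawn was -0.40 ± 0.17 in the retina, with no adjusted p, and 0.82 ± 0.25 in the pineal gland (adjusted p = 0.0238). XIST, a gene of females, was at 39.7 to 49.3 FPKM in the 3 dusk retina libraries and at 0.0219 to 0.0342 in the 3 dawn retina libraries. Time and sex cannot be told apart in that retina pair, and the part of sex was not tested.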

How the results depend on the processing

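Between retina and pineal gland, 7 to 8 pigment genes were called under every alternative, 8 without the filter. Of all genes tested 83.0% were called in the main fit, and 26940 of 41923 were called without the filter. SLC45A2, not called, reversed without retina dawn 2 and mid-day 1 (-0.0013, limma adjusted p = 0.996). With the replicate block the count was 7 for retina against pineal gland and 0 in each time comparison, so it changed no call. Deviations of same-numbered retina and pineal libraries correlated at -0.051 to 0.105, over 0.1 in 1 of 12 pairs. Among pineal libraries of different times, 5 of 18 same-numbered pairs were over 0.1 (median 0.052), against 0 of 36 others (median -0.024). With the replicate block the count of all genes called in the pineal gland was 204 for dusk against dawn (112 without it), 34 for midnight against dusk (11 without it), 21 for mid-day against dawn (6 without it) and 43 in the F test (20 without it), and in the interaction it was 4 (54 without it). Without the filter 5 genes were called in retina against pools, with DCT and MLANA added. Leaving out 1 library moved the count of pineal gland against pools to between 2 and 4, where it was 2 without either pool, and OCA2, not called there, reversed without the mid-day pool (-0.12, adjusted p = 0.882) and was at 0.40 without the midnight pool. Without the filter 6 were called there, with PMEL and BEST1, both lower, added. TYRP1 in retina against pools lost its call with limma-voom (log2 7.40, adjusted p = 0.0680, against at most 0.000345 when 1 library was left out). SLC45A2 in retina against pools was called with a pseudocount of 0.1 (2.12, adjusted p = 0.0228) and without retina dawn 3, mid-day 3, dusk 2 or dusk 3 (adjusted p = 0.0363 to 0.0475). The cause of these changes was not tested, apart from the fewer libraries where 1 was left out. Among all genes, 13526 were called in retina against pools and 21092 without the filter, and 9696 in pineal gland against pools and 16219 without it. In the time comparisons and the interaction 0 to 112 of all genes were called, and 0 to 204 over the alternatives, while 0 pigment genes were called in each. Few reads limit TYR in both tissues (73 in the retina and 69 in the pineal gland in all), PMEL in the pineal gland (112), MLANA in the pineal gland (206) and DCT in the retina (213).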
